A study of Arabidopsis thaliana with 12 samples.

Results

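The genes described here are 10 Arabidopsis thaliana genes of transient starch breakdown, taken by locus from the 33602 loci of the deposited tables. They are GWD (also called SEX1), PWD, BAM1, BAM3, DPE1, DPE2, ISA3, AMY3, SEX4 and MEX1, and all 10 passed the filter on low counts. The RNA came from whole seedlings aged 10 days, grown in a greenhouse at 21 °C with 16 h of light and 8 h of dark. The 4 groups of 3 libraries were wild-type Col-0 seedlings and seedlings of the mutant atrx-2, under either normal light (130 µmol per s per m2) or low light (30 µmol per s per m2). The series title places ATRX, a chromatin remodeller, with LHP1 at loci targeted by PRC2; how the atrx-2 allele was made is not given in the sources used here, and 1 mutant line was compared. The labels number the replicates but do not say whether each was its own culture, so every p-value reflects the spread among these libraries only, and that spread may be technical. The hour of harvest within the day is not given in the sources used here.

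Leaves store part of the carbon fixed by day as starch in the chloroplast and break it down at night. The granule surface is first phosphorylated, which opens the glucan chains to hydrolysis, and the phosphate is removed again as breakdown proceeds. Beta-amylases release maltose from the chain ends, debranching enzymes remove branch points, and maltose is exported to the cytosol, where it is converted to glucose and further sugars. Transcripts of many of these genes are known to vary over the day under the control of the circadian clock.

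Library depth lay between 13733302 and 23899191 estimated counts. ATRX (AT1G08600), the mutated gene, had 537 to 905 counts in the 6 wild-type libraries and 6 to 20 in the 6 atrx-2 libraries, so no library went against its label. Green tissue markers were high in all libraries, with summed levels of 23339 to 34106 CPM (counts scaled to a common library size with TMM factors), root markers summed to 1860 to 2555 CPM, and 3 seed storage and oil body markers summed to at most 0.673 CPM.

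The 10 genes are spread over the 5 nuclear chromosomes (TAIR10.1, 1-based). GWD (AT1G10760) occupies chr1:3580830-3590928 and AMY3 (AT1G69830) chr1:26288228-26293173, both on the minus strand. DPE2 (AT2G40840) occupies chr2:17044932-17051062 on the plus strand. BAM1 (AT3G23920) lies at chr3:8641181-8644449 on the plus strand and SEX4 (AT3G52180) at chr3:19349600-19353728 on the minus strand. ISA3 (AT4G09020) lies at chr4:5783909-5789100 on the plus strand and BAM3 (AT4G17090) at chr4:9604962-9607402 on the minus strand. PWD (AT5G26570) occupies chr5:9261479-9267732 on the plus strand, whereas MEX1 (AT5G17520; chr5:5772568-5775417) and DPE1 (AT5G64860; chr5:25925173-25928879) are on the minus strand. BAM1 and BAM3 are beta-amylase genes here and not the receptor kinase genes that carry the same symbols at other loci.

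Reads of 50 bases could be placed uniquely in 9 of the 10 genes, since none of their exonic 50-base windows occurs elsewhere in the genome. The exception was MEX1, for which 62.2% of windows have an exact second copy at chr5:5776363-5777417. That copy lies mostly in the neighbouring locus AT5G17523 (chr5:5775586-5777350). The deposited estimates gave AT5G17523 no count in 7 libraries and at most 6.41 in the other 5, so MEX1 values are uncertain by the division of reads between the loci. BAM3 overlaps genes on the opposite strand, and the strand setting of the counting is not given in the sources used here. Reads of those genes from the overlap may therefore be among the BAM3 counts. The deposited BAM3 estimates were not whole in 0 of 12 libraries, so no division of reads with another counted locus was seen. Of these genes only AT4G17085 was compared, and it had 65 to 199 counts against 543 to 7986 for BAM3.

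The sequences before the gene starts were searched because most of the genes moved with light and 6 of 9 clock genes did too. In the 300 bases before each annotated start, the core of the evening element (AATATCT, either strand), a motif known from genes with evening-phased transcripts, occurred in 4 of the 10 genes. It occurred in 11.8% of the 27443 protein-coding gene windows of the same length. The full evening element (AAAATATCT, which contains the core) occurred in 2 of the 10, ISA3 and PWD, and in 2.79% of all windows. The G-box (CACGTG, its own reverse complement), a motif bound by light-responsive factors, occurred only in DPE1 among the 10 genes and in 7.09% of all windows, and the I-box (GATAAG, either strand) only in BAM3 and in 14.5%. The 60-base stretches that hold the evening element core and the G-box are given on the strand of the gene, with the matches in capitals. They are RefSeq sequence of TAIR10.1 and overlap no other annotated gene. In PWD, ISA3, SEX4 and MEX1 the capitals are the core read on the opposite strand, and in DPE1 they are 2 G-boxes.
PWD (chr5:9261419-9261478, plus strand): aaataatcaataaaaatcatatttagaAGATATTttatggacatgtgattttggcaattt
ISA3 (chr4:5783844-5783903, plus strand): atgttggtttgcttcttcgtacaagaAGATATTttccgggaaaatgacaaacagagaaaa
SEX4 (chr3:19353731-19353790, minus strand): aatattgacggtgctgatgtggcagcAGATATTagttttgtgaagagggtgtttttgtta
MEX1 (chr5:5775460-5775519, minus strand): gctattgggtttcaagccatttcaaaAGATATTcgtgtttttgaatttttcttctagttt
DPE1 (chr5:25928880-25928939, minus strand): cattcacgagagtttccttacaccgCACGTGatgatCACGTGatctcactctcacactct
The matches began 33 bases before the start in PWD, 36 in SEX4, 39 in ISA3 and 76 in MEX1, and 35 and 24 bases before it in DPE1. Of the genes with the full element, ISA3 rose under low light in both genotypes and PWD was called in neither. Of those with the core alone, SEX4 rose in both genotypes and MEX1 was called in atrx-2 but not in wild type. The core was absent before GWD, DPE1, DPE2 and AMY3, which rose in both genotypes. It was also absent before BAM1 and BAM3, which fell in both. A link between the motifs and the light effects was not tested.

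The comparison of low with normal light in wild type asked how the transcripts of starch breakdown differed between seedlings given more or less light. The genes of the glucan dikinase GWD, the phosphatase SEX4, the debranching enzyme ISA3, the alpha-amylase AMY3 and both disproportionating enzymes were higher under low light, and the beta-amylase genes BAM3 and BAM1 were lower. Of the 10 genes, 6 rose (GWD, DPE1, DPE2, ISA3, AMY3 and SEX4), 2 fell (BAM1 and BAM3) and 2 did not pass the test (PWD and MEX1), by edgeR's quasi-likelihood test at an adjusted p under 0.05. The background was high, with 34.2% of the 20783 tested genes called, 16.6% higher and 17.6% lower. The same 6 and 2 genes did not overlap between the light levels, where 45.7% of tested genes did not, 22.2% with low light higher and 23.5% with low light lower. The median log2 fold change of the 10 genes was 1.48, and that of all tested genes was 0.00 to 2 decimals. In whole seedlings, fewer cells of a type and less RNA per cell cannot be told apart.

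**Figure D1:**
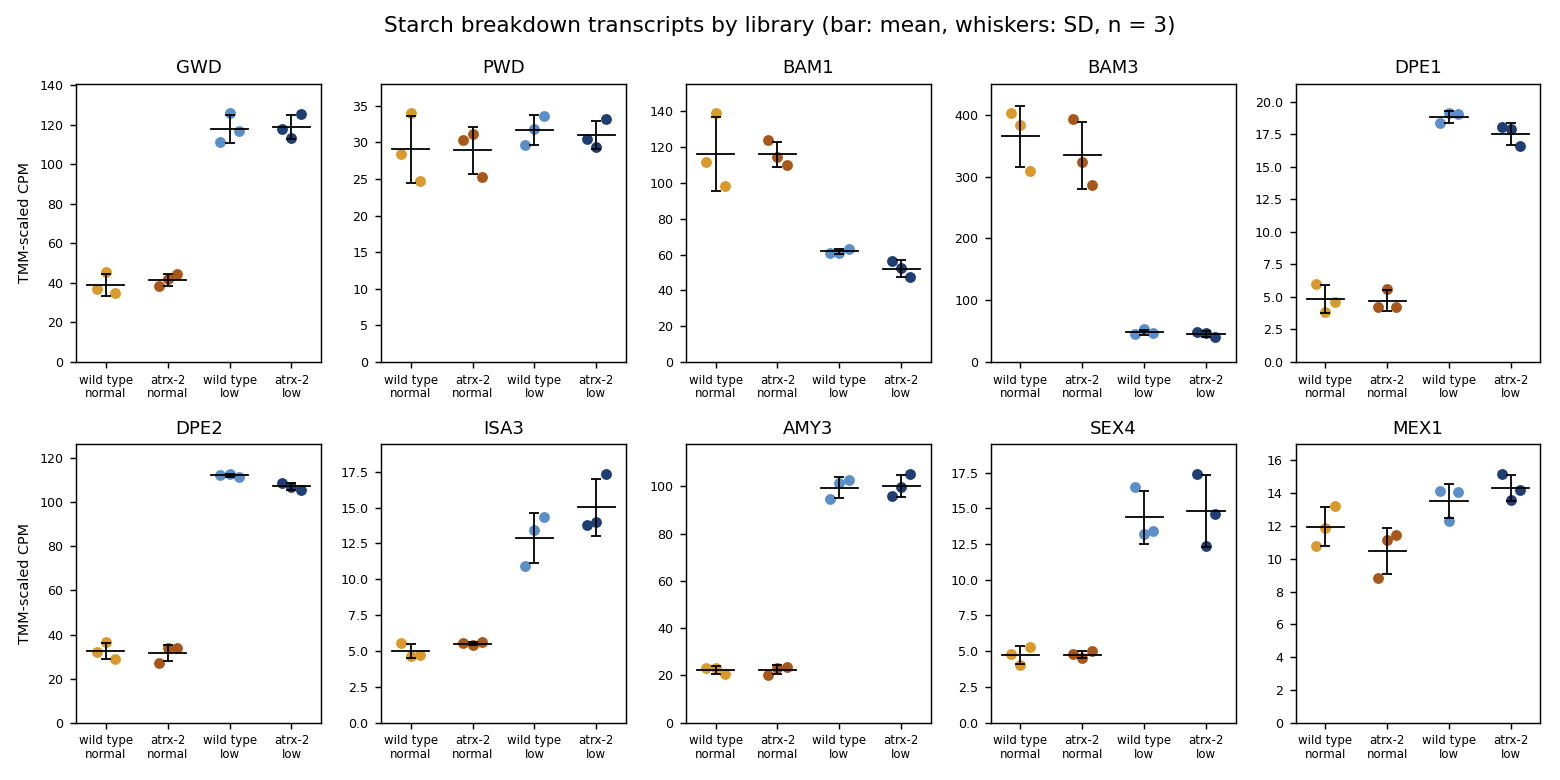
TMM-scaled CPM of the 10 starch breakdown genes in each of the 12 libraries, with group means (bars) and SD (whiskers, n = 3). BAM3 falls from 309.9 to 402 CPM in wild type under normal light to 45.7 to 53.0 under low light, and AMY3 lies at 20.4 to 23.2 CPM under normal and at 94.5 to 103 under low light.

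The chloroplast beta-amylase gene BAM3, whose product is the main maltose-releasing enzyme of leaves at night, showed the largest change of the 10 genes. Its levels in the 3 wild-type libraries were 402, 383 and 309.9 CPM under normal light and 45.7, 53.0 and 46.1 CPM under low light. All low-light libraries lay far below all normal-light libraries. The mean fell from 365 ± 48.8 to 48.3 ± 4.15 CPM (SD, n = 3 each; 7.56-fold, log2 -2.92 ± 0.13 SE, adjusted p = 2.71e-09). Only 0.51% of all tested genes had a larger absolute log2 fold change in this comparison.

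BAM1, a chloroplast beta-amylase known for its part in guard cells and under stress, fell less. The levels were 112, 139 and 98.5 CPM under normal light and 61.1, 60.8 and 63.4 CPM under low light in wild type. The groups did not overlap, and the normal-light libraries were the more variable. The fall was 1.88-fold (log2 -0.91 ± 0.11 SE, adjusted p = 1.85e-05).

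The chloroplast alpha-amylase gene AMY3, whose product cuts within glucan chains, rose most. Its wild-type levels were 23.2, 23.2 and 20.4 CPM under normal light and 94.5, 101 and 103 CPM under low light. The low-light libraries lay far above the normal-light libraries. The rise was 4.47-fold (log2 2.16 ± 0.08 SE, adjusted p = 5.43e-10).

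DPE1 and DPE2 encode disproportionating enzymes, the first acting on short glucans such as maltotriose in the chloroplast and the other on maltose in the cytosol. DPE1 had 6.01, 3.84 and 4.62 CPM under normal light and 18.3, 19.1 and 19.1 CPM under low light in wild type, a rise of 3.90-fold (adjusted p = 1.39e-07). DPE2 had 32.0, 36.6 and 29.0 CPM against 113, 113 and 111 CPM, a rise of 3.46-fold (adjusted p = 9.93e-09). For both genes all low-light values exceeded all normal-light values. The low-light replicates lay close together, with a coefficient of variation of 2.31% for DPE1 and 0.626% for DPE2. Counts of their size (225 to 328 for DPE1 and 1314 to 2013 for DPE2) vary by more than this through sampling alone. The closeness therefore cannot be read as a trait of these genes.

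The glucan phosphorylation genes did not move alike. GWD, which encodes the dikinase that begins granule phosphorylation, had 36.7, 45.4 and 34.8 CPM under normal light and 111, 126 and 117 CPM under low light in wild type, a 3.03-fold rise (log2 1.60 ± 0.10 SE, adjusted p = 3.59e-08). PWD, whose product acts after GWD on already phosphorylated glucan, had 28.4, 34.0 and 24.8 CPM against 29.6, 31.8 and 33.7 CPM. Its groups overlapped and its log2 difference was 0.13 ± 0.11 SE (95% interval -0.11 to 0.37, adjusted p = 0.41). The ratio of GWD to PWD, per length and within a library, was 1.04 to 1.13 at the normal and 2.79 to 3.18 at the low light level, a quantity that does not depend on how the libraries were scaled.

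SEX4, the phosphatase gene that removes the glucan phosphate, rose from 4.72 ± 0.628 to 14.4 ± 1.85 CPM (SD, n = 3 each; 3.03-fold, adjusted p = 1.40e-06). ISA3, the debranching isoamylase gene, rose from 4.99 ± 0.490 to 12.9 ± 1.75 CPM (2.58-fold, adjusted p = 2.68e-06). Neither gene's groups overlapped. MEX1, the maltose exporter of the chloroplast envelope, had 10.8, 11.9 and 13.2 CPM under normal light and 14.1, 12.3 and 14.1 CPM under low light, with overlapping groups (log2 0.17 ± 0.12 SE, interval -0.07 to 0.42, adjusted p = 0.267). Both its reads and those of its partial copy enter this value only as the deposited estimates divided them.

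In atrx-2 the same comparison was made on the other 6 libraries. BAM3 had 393, 324 and 287 CPM under normal light and 48.6, 46.6 and 39.7 CPM under low light, a 7.44-fold fall (log2 -2.90 ± 0.13 SE, adjusted p = 2.60e-09). BAM1 had 124, 114 and 109.9 CPM against 56.6, 52.7 and 47.4 CPM, a 2.22-fold fall (adjusted p = 2.09e-06). Both beta-amylase genes were lower in every low-light library.

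AMY3 had 20.3, 23.3 and 23.7 CPM under normal light and 95.9, 99.7 and 105 CPM under low light in atrx-2, a 4.47-fold rise (adjusted p = 4.99e-10). GWD, DPE1, DPE2, ISA3 and SEX4 rose by 2.86-fold, 3.72-fold, 3.39-fold, 2.74-fold and 3.11-fold, with the largest adjusted p of the 5 at 1.09e-06. PWD again did not pass the test (log2 0.10 ± 0.11 SE, adjusted p = 0.514). MEX1 had 8.84, 11.1 and 11.4 CPM against 15.2, 13.6 and 14.2 CPM, which did not overlap, and was called higher (1.37-fold, log2 0.45 ± 0.11 SE, adjusted p = 0.00733). In all, 7 of the 10 genes rose, 2 fell and 1 was not called, where 33.1% of all tested genes were called, 16.1% higher and 16.9% lower. The same 7 and 2 genes did not overlap between the light levels, against 46% of tested genes, 22.9% with low light higher and 23.1% with low light lower.

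**Figure D2:**
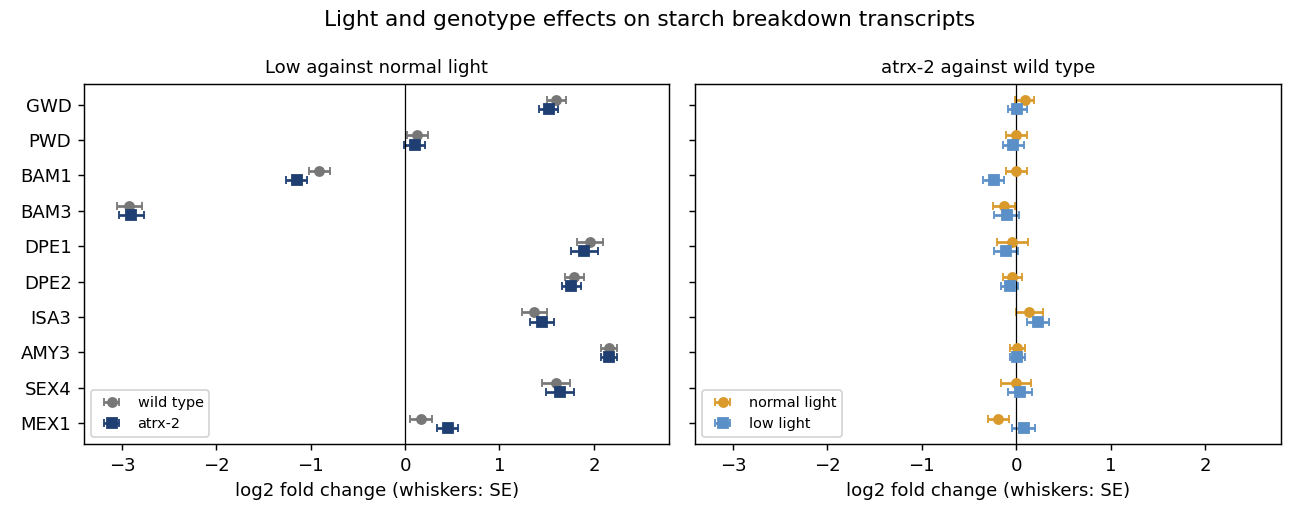
Log2 fold changes of the 10 genes with standard errors, for low against normal light (left, wild type and atrx-2) and for atrx-2 against wild type (right, normal and low light). Light effects run from -2.92 for BAM3 to 2.16 for AMY3 in wild type, and genotype effects from -0.24 for BAM1 to 0.23 for ISA3.

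MEX1 was called in atrx-2 and not in wild type, but its light effects in the 2 genotypes were not shown to differ. The difference between them was a log2 of 0.28 ± 0.16 SE (95% interval -0.07 to 0.63, adjusted p = 0.978 for the genotype by light interaction). For no member did the interaction pass the test by edgeR, 0 had an unadjusted p under 0.05, and DESeq2 called 0. Over all tested genes 0.00481% were called for the interaction, and 915 of 20783 had an unadjusted p under 0.05. BAM1 had the next largest difference between the light effects, a log2 of -0.24 ± 0.15 SE (interval -0.57 to 0.09), and AMY3 the smallest, at 0.00 ± 0.11 SE.

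Library content differed between the light levels. Under low light the nuclear ribosomal RNA loci took 9.81% to 16.7% of counts, against 3.73% to 8.67% under normal light, and chloroplast genes 4.83% to 8.9% against 2.29% to 3.55%. Without both kinds of genes the light effects were as large, with a log2 of -2.91 for BAM3, 2.17 for AMY3 and 1.61 for GWD in wild type. Of 6 green tissue markers 2 rose and 3 fell under low light in each genotype; their summed level was 31157 to 34106 CPM and 27323 to 28711 CPM in wild type, and 29962 to 32192 CPM and 23339 to 25922 CPM in atrx-2. Of 8 root markers 3 rose in wild type and 2 in atrx-2 and none fell. Their summed levels overlapped between the light levels, at 1860 to 2325 CPM under normal light and 1975 to 2555 CPM under low light. Most of that sum was 1 gene, PYK10, with group means of 1953 to 2190 CPM. Of the markers that rose, WOX5, NRT2.1 and PLT1 had group means of at most 2.29 CPM. IRT1 was widely spread in wild type under low light (118 ± 51.0 CPM, SD, n = 3). The part of the green tissue and root markers in the light effects was not tested.

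Per kilobase of effective length, a scale on which genes can be compared with each other, BAM3 stood first under normal light at 197 ± 26.3 CPM per kb in wild type (SD, n = 3). BAM1 followed at 59.6 ± 10.6, and no library of BAM1 reached the lowest library of BAM3. DPE2, GWD, MEX1, PWD and AMY3 came next, from 10.5 to 8.03 CPM per kb, and each overlapped its neighbour in that order. SEX4, DPE1 and ISA3 were lowest, at 3.55, 2.66 and 2.16 CPM per kb, again with overlapping neighbours.

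Under low light the order of levels in wild type was different. DPE2 (36.4 ± 0.228 CPM per kb) and AMY3 (35.9 ± 1.58) stood first and overlapped each other. BAM1 followed at 31.6 ± 0.722, above GWD (26.3 ± 1.61) and BAM3 (26.0 ± 2.23), which overlapped. SEX4, DPE1, MEX1 and PWD lay between 10.8 and 8.77 CPM per kb with overlapping neighbours, and ISA3 was last at 5.60 ± 0.759. In atrx-2 the first 5 places under low light were held by AMY3, DPE2, BAM1, GWD and BAM3, at 36.1, 34.8, 26.7, 26.4 and 24.2 CPM per kb, and the last 3 of these overlapped.

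BAM3 alone supplied 62% to 66.5% of the summed per-kilobase level of the 10 genes in wild-type libraries under normal light, and 12.2% to 14% once light was low. In atrx-2 its share was 58.5% to 65.6% and 11.1% to 13.2%. The share of AMY3 went the other way, from 2.51% to 2.76% up to 17.3% to 18.3% in wild type. Summed over the 10 genes, the level in wild type was 267 to 333 CPM per kb at the normal and 197 to 205 at the low light level. With BAM3 left out it was 99.9 to 127 and 172 to 178 CPM per kb, so the direction of the sum depended on that 1 gene.

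**Figure D3:**
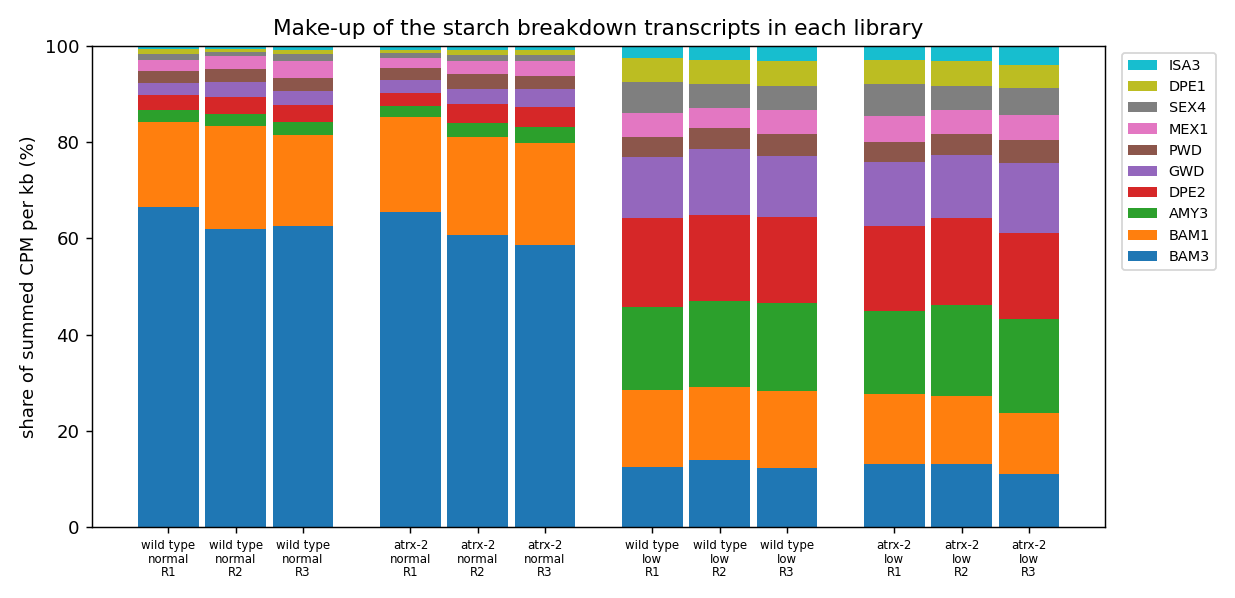
Share of each of the 10 genes in their summed CPM per kb of effective length, 1 bar for each of the 12 libraries (R1 to R3 are replicates). BAM3 takes 58.5% to 66.5% of each normal-light bar and 11.1% to 14% of each low-light bar.

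The ratio of BAM3 to AMY3 within a library, per length, summarised this change without any scaling between libraries. In wild type it was 25.9, 24.7 and 22.7 under normal light and 0.723, 0.782 and 0.671 under low light. In atrx-2 it was 29.0, 20.8 and 18.1 against 0.757, 0.699 and 0.564. BAM3 was thus above AMY3 in all 6 normal-light libraries and below it in all 6 low-light libraries. The ratio of BAM3 to BAM1 also changed, from 2.74 to 3.78 over the normal-light libraries of both genotypes to 0.765 to 0.931 over the low-light libraries.

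Setting the mutant against wild type asked whether loss of ATRX altered these transcripts. Under normal light none of the 10 genes passed the test by edgeR, 0 had an unadjusted p under 0.05, and DESeq2 called 0. Of all tested genes 0.0674% were called, 0.0481% higher and 0.0192% lower, and 1791 of 20783 had an unadjusted p under 0.05. The log2 differences ran from -0.19 for MEX1 to 0.14 for ISA3, with a median of 0.00, the same as that of all tested genes to 2 decimals. The atrx-2 values overlapped those of wild type for each of the 10 genes, whereas 12.2% of tested genes did not overlap, 5.54% higher and 6.62% lower. The 95% intervals of the fold change reached at the widest down to 0.737 (MEX1) and up to 1.36 (ISA3), and were narrower for others, such as 0.889 to 1.14 for AMY3 and 0.851 to 1.17 for BAM1.

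For BAM3, whose level was the highest, atrx-2 and wild type stood at 334 ± 53.8 and 365 ± 48.8 CPM under normal light (SD, n = 3 each; log2 -0.13 ± 0.12 SE, interval -0.39 to 0.14, adjusted p = 0.792). AMY3 stood at 22.4 ± 1.89 and 22.3 ± 1.62 CPM (interval -0.17 to 0.19). GWD stood at 41.5 ± 3.02 and 39.0 ± 5.66 CPM (interval -0.12 to 0.31).

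Under low light none of the 10 genes passed the test by edgeR either, 1 had an unadjusted p under 0.05, and DESeq2 called 0. Of all tested genes 0.0722% were called, 0.0433% higher and 0.0289% lower, and 1359 of 20783 had an unadjusted p under 0.05. Among the 10, the gene with the low unadjusted p was BAM1, at 56.6, 52.7 and 47.4 CPM in atrx-2 and 61.1, 60.8 and 63.4 CPM in wild type. Each atrx-2 value was below each wild-type value, but the difference did not pass the test after adjustment (1.18-fold, log2 -0.24 ± 0.11 SE, interval -0.48 to -0.01, adjusted p = 0.752). DPE1 and DPE2 were also lower in every atrx-2 library, with log2 differences of -0.11 ± 0.13 and -0.07 ± 0.09 SE (adjusted p = 0.969 and 0.975). These made 3 of 10 genes with no overlap between the groups, all lower in atrx-2, where 12.9% of all tested genes did not overlap, 6.66% with atrx-2 lower and 6.22% with it higher. All 6 green tissue markers also had negative log2 differences here (-0.21 to -0.16, none called, 5 with an unadjusted p under 0.05), and their summed level was 23339 to 25922 CPM in atrx-2 and 27323 to 28711 CPM in wild type. Their part in the lower BAM1, DPE1 and DPE2 values was not tested. ISA3 had the largest positive difference, at 13.8, 14.0 and 17.3 CPM in atrx-2 against 10.96, 13.4 and 14.3 CPM in wild type (log2 0.23 ± 0.12 SE, interval -0.03 to 0.49, adjusted p = 0.819).

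Averaged over both light levels, the genotype effect was again called for none of the 10 genes by edgeR or DESeq2, and 0 had an unadjusted p under 0.05. Of all tested genes 0.308% were called, 0.164% higher and 0.144% lower, and 2113 of 20783 had an unadjusted p under 0.05. ISA3 had a log2 of 0.19 ± 0.09 SE (interval -0.01 to 0.39, adjusted p = 0.523), BAM1 -0.12 ± 0.08 SE (adjusted p = 0.633) and BAM3 -0.12 ± 0.09 SE (adjusted p = 0.702). The other 7 lay between -0.07 for DPE1 and 0.05 for GWD. The intervals of the averaged fold change ran at the widest from 0.808 (BAM3) to 1.31 (ISA3).

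Genes of a wider list, drawn up around starch breakdown and sugar export, moved with light in both directions. Of 19 such genes 17 were tested, and in wild type 6 rose, 5 fell and 6 were not called under low light. In atrx-2 6 rose, 4 fell and 7 were not called. Among all 20783 tested genes, wild type had 16.6% called higher under low light and 17.6% called lower. For the mutant these shares were 16.1% and 16.9%. The median log2 over the 17 was 0.00 for wild type and -0.10 for atrx-2, against 1.48 in each genotype for the 10 main genes. The wider list also holds family members and sugar-related genes that do not themselves break down starch. Its median therefore does not stand for the rest of the pathway. BAM5 and AMY1 were too low to be tested.

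The glucan phosphorylase genes PHS1, of the chloroplast, and PHS2, of the cytosol, rose. PHS1 went from 30.4 ± 3.25 to 181 ± 7.68 CPM in wild type (SD, n = 3 each; log2 2.57 ± 0.10 SE, adjusted p = 8.34e-10) and PHS2 from 9.93 ± 0.27 to 61.6 ± 2.98 CPM (log2 2.63 ± 0.08 SE, adjusted p = 6.06e-11). BAM9, a beta-amylase family gene without known catalytic activity, fell from 227 ± 34.9 to 54.6 ± 2.04 CPM (log2 -2.06, adjusted p = 4.34e-08), and BAM6 fell from 5.82 ± 0.741 to 1.00 ± 0.206 CPM (log2 -2.50, adjusted p = 6.80e-06). In atrx-2 these 4 genes had log2 changes of 2.40, 2.66, -2.33 and -3.28, all called. All 4 overlap the annotated span of a neighbouring gene, and the deposited PHS1 estimates were not whole in any of the 12 libraries. The BAM6 change in atrx-2 (SE 0.31) rests on few reads, with 10, 10 and 3 counts in the low-light libraries.

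**Figure D4:**
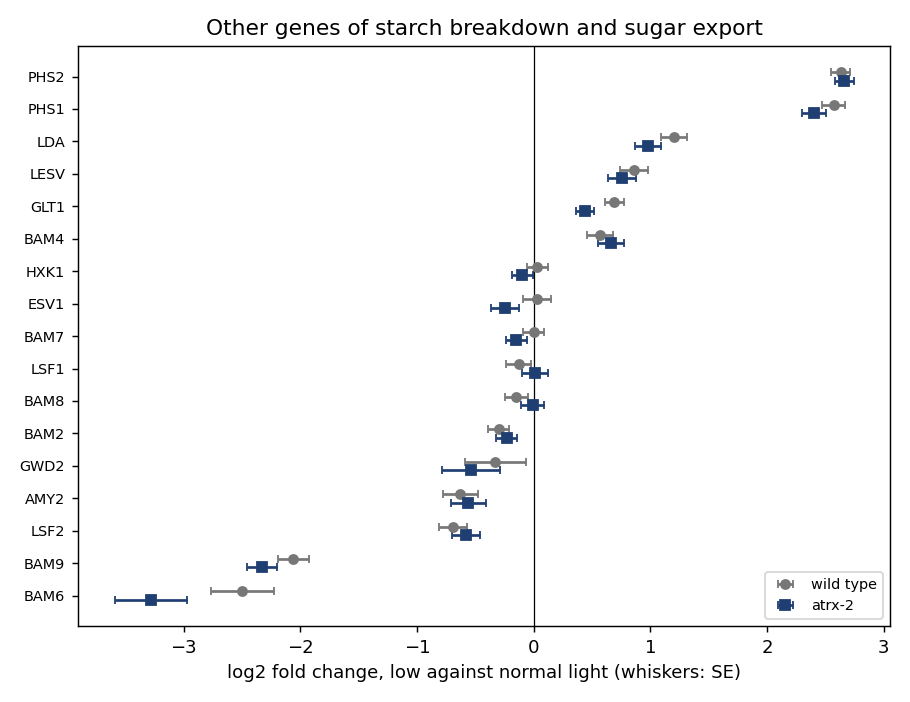
Log2 fold changes with standard errors for low against normal light of the 17 tested genes of the wider list around starch breakdown and sugar export, in wild type and atrx-2. PHS2 and PHS1 lie at 2.63 and 2.57 in wild type and BAM9 and BAM6 at -2.06 and -2.50.

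For genotype, 0 of these 17 genes passed the test by edgeR at either light level, and DESeq2 called 0 at either. Of all tested genes edgeR called 0.0674% under normal and 0.0722% under low light. An unadjusted p under 0.05 was found for 1 of the 17 under normal and 4 under low light. Over the 20783 tested genes it was found for 1791 and 1359. With both light levels averaged, edgeR and DESeq2 called 0 of the 17, beside 0.308% of all tested genes by edgeR. There 4 had an unadjusted p under 0.05 by edgeR, against 2113 of the 20783 tested genes. BAM6 had the largest difference, a log2 of -0.82 ± 0.22 SE (adjusted p = 0.194). For the starch synthesis genes, the opposite side of starch turnover, 9 of 17 rose and 2 fell under low light in wild type and 9 rose and 1 fell in atrx-2. Their median log2 was 0.27 and 0.25. The shares of all tested genes called under low light were 16.6% higher and 17.6% lower for wild type. For the mutant they were 16.1% and 16.9%. None of the 17 synthesis genes was called for genotype at either light level; 2 and 1 had an unadjusted p under 0.05 under normal and low light, and DESeq2 called 0 at either level. Averaged over both light levels edgeR called none of them either, beside 0.308% of all tested genes. There 2 had an unadjusted p under 0.05, against 2113 of the 20783 tested genes. DESeq2 called 1, the starch synthase gene SS1 (adjusted p = 0.00179), where it called 152 genes in all. The edgeR estimate for SS1 was -0.26 ± 0.05 SE on the log2 scale (adjusted p = 0.0569). At each light level its atrx-2 values lay below those of wild type without overlap. The same held for 6.62% of tested genes under normal and 6.66% under low light.

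Of 9 circadian clock genes, 6 also moved with light. CCA1 and LHY, morning-phased repressors of the clock, fell under low light in wild type (adjusted p = 1.16e-08 and 1.34e-09). CCA1 was at 195 ± 11.3 CPM under normal light and 68.8 ± 4.24 under low light, and LHY at 271 ± 23.3 and 50.2 ± 3.07 CPM (SD, n = 3). GI and TOC1, which peak later in the day, rose (adjusted p = 2.51e-07 and 0.00231), GI to 47.3 ± 3.83 from 20.7 ± 1.78 CPM, and TOC1 to 19.5 ± 0.54 from 14.5 ± 1.75 CPM. Of the 9 clock genes 4 rose and 2 fell in each genotype. The share of all tested genes called for light, in either direction, was 34.2% for wild type. For the mutant it was 33.1%. No clock gene was called for genotype at either light level by edgeR or DESeq2, where edgeR called 0.0674% and 0.0722% of all tested genes. Under normal and low light 0 and 1 clock genes had an unadjusted p under 0.05, against 1791 and 1359 of the 20783 tested genes. The light level, the hour of harvest and the phase of the clock cannot be told apart in this design, and their part in the light effects on starch breakdown genes was not tested.

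LHY was among the genes whose pattern over the 12 libraries was most like that of BAM3. Likeness was measured as the root mean square difference of log2(CPM + 0.5), each gene centred on its own mean, over 14845 candidate genes of at least 5 CPM. The 5 nearest were AT1G65490 (0.159), AT3G28270 (0.166), CYP71A25 (0.174), LHY (0.215) and Hop3 (0.254). Their log2 fold changes under low light in wild type were -2.66, -2.63, -3.07, -2.43 and -3.03. Most of the BAM3 pattern is its light effect (log2 -2.92 in wild type and -2.90 in atrx-2). The measure therefore finds genes with a light effect of like size, and these fold changes were largely fixed by the choice. The list is no test of a link between BAM3 and the clock.

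**Figure D5:**
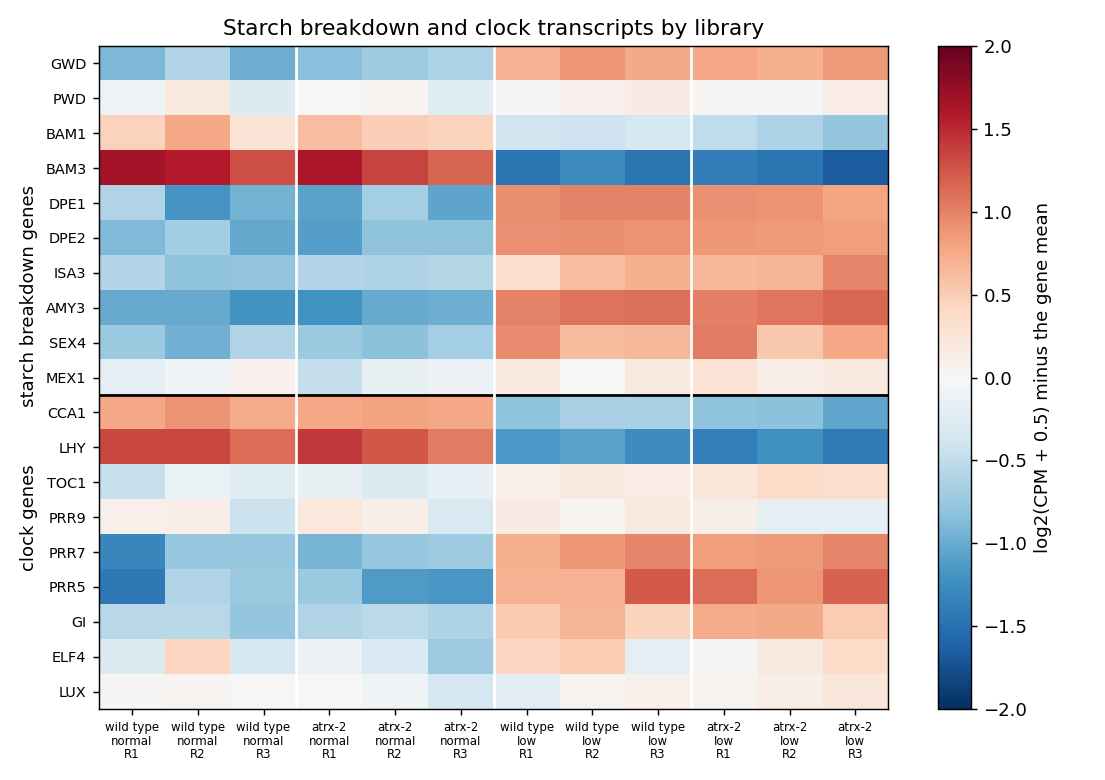
Log2(CPM + 0.5) minus the mean of each gene over the 12 libraries (colour), for the 10 starch breakdown genes (upper rows) and 9 clock genes (lower rows); columns are libraries, with R1 to R3 as replicates. BAM3 and LHY are high in all 6 normal-light libraries and low in all 6 low-light libraries, and AMY3 and GI are the reverse.

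Replicates varied more under normal than under low light for GWD, PWD, BAM3, DPE1, DPE2, AMY3 and MEX1 in both genotypes. In wild type the coefficient of variation was 14.5% and 6.12% for GWD, 22.8% and 2.31% for DPE1 and 13.4% and 8.59% for BAM3. ISA3 in wild type went the other way, at 9.82% and 13.5%, as did BAM1, ISA3 and SEX4 in atrx-2, at 6.12% and 8.88%, 1.97% and 13.3%, and 5.17% and 17%. With 3 libraries a group these spreads are themselves imprecise, and no test of them was made. Some are smaller than counting noise, such as those of DPE1 in wild type under low light and ISA3 in atrx-2 under normal light.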

How the data were processed

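RNA-seq was carried out on 12 libraries of whole seedlings. The labels' protocols name total RNA, a NEBNext Ultra II kit and single reads of 50 bases. The authors deposited estimated counts per transcript model made with kallisto 0.42 on TAIR10, per the submitters' processing notes, where DESeq2 is listed too. The strand setting was not stated there. The deposited TPM values, made by the authors with the same program, were not used. The estimates (1 model per locus; 12.3% to 13.9% not whole, tolerance 1e-06) were rounded to whole numbers. Replicates differed by more than counting noise (chi-square of 6.04 to 29.4 per gene).

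Genes were filtered with filterByExpr (20783 kept) and fitted with edgeR 4.0.16 under R 4.3.3 by quasi-likelihood over the 4 groups, with TMM scaling and 8 residual degrees of freedom. Benjamini-Hochberg adjustment ran over all tested genes, two-sided, with calls at an adjusted p under 0.05. Intervals are at 95%. The fit was tested on simulated data. Alternatives included DESeq2 1.42.0, other filters and scaling, a replicate block and leaving out each library. The members and lists were chosen with earlier results of these data known. No listed gene was dropped for its symbol. Named genes were the 10 members, the 4 called pathway genes of largest change in each light comparison, CCA1, LHY, TOC1 and GI, and the 5 genes most like BAM3. BAM5, AMY1, SS1, AT5G17523 and AT4G17085, and the motifs, were chosen after values were seen. So were the other clock genes and the root markers that are named.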

Additional observations from a re-analysis of the deposited data

How the results depend on the processing

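The 60 results on the members (10 genes in 6 comparisons) kept their side of the threshold, and the called ones their direction, in each of the 18 to 20 alternatives run for each. These were DESeq2, its size factors, no low-count filter, a 5 CPM filter, only the libraries compared, the replicate block, leaving out organelle and ribosomal RNA genes, each library left out in turn and, chosen after seeing the data, MEX1 summed with its partial copy. The light effect of BAM3 in wild type ran from -3.02 to -2.84 and that of MEX1 in atrx-2 from 0.34 to 0.52 (adjusted p 0.00654 to 0.0381). With the replicate block, the number of members called was 8 for light in wild type and 9 in atrx-2, as without it, and 0 for genotype. The deviations of same-numbered libraries correlated at -0.175 to 0.197 (median 0.068, 6 of 18 pairs over 0.1) and those of other pairs at -0.24 to 0.234 (median -0.04). Not every same-numbered pair was over 0.1 and the labels name no shared source, so the numbers were not taken to pair samples, although 8 of 12 libraries were closest to their own number, a hint of pairing from the data. Counts over all tested genes moved more. Under normal light 14 genes were called for genotype, with 58 by DESeq2, 41 without a filter, 7 at 5 CPM, 8 with only the libraries compared, 25 without organelle and ribosomal RNA genes, and as few as 5 with a library left out. Under low light the 15 became 57, 26 and 9 by DESeq2, without a filter and at 5 CPM, and 7 without wild-type replicate 2. Averaged over light, the 64 became 152, 100 and 41, and 31 to 42 without 1 of 6 libraries. The single interaction call became 3 by DESeq2, 0 at 5 CPM or with the replicate block, and 0 to 2 with a library left out.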
